A study of Mus musculus with 24 samples.

Results

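Mir124a-1hg, Hs3st1, Nr0b1, Nup37, Fastkd5, Ttc30a1 and Ttc30b are 7 genes that were picked because their signal was lower in cultured mouse cortical neurons 2 h after IBET858, an inhibitor of BET proteins, than after the solvent DMSO. The genes were chosen by these 2 h values. They make up 7 of the 18194 genes that the arrays measured with a probe set naming a single gene. Each of the 7 is represented by 1 probe set, and no probe set names one of them together with another gene. The values that chose them, the IBET858 and DMSO arrays at 2 h, are described below without a test. The questions are whether the lower signal was still there at 12 h, and whether the growth factor BDNF lowers the same genes. A large early fall describes 6 of the 7 well. Ttc30b ranked 225th of 18194 genes by the size of its fall.

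BET proteins bind acetylated lysines on histone tails, and a compound which displaces them from chromatin is known to lower many transcripts with a fast turnover. BDNF signals through the TrkB receptor and switches on a programme of activity-dependent transcription in cortical neurons. The roles of the 7 genes are mostly unrelated. Mir124a-1hg is a long noncoding RNA that hosts a gene for miR-124, a microRNA abundant in neurons. Hs3st1 is a sulfotransferase that completes particular binding sites on heparan sulfate chains. Nr0b1, also called Dax1, is an orphan nuclear receptor that restrains the activity of the steroidogenic receptor Nr5a1. Nup37 is a subunit of the Y-complex, a structural module of the nuclear pore. Fastkd5 is a mitochondrial RNA-binding protein needed for the processing of mitochondrial transcripts. Ttc30a1 and Ttc30b are near-identical subunits of intraflagellar transport complex B, which carries cargo along the shaft of cilia.

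The study used primary cortical neurons from E18 mouse embryos, kept for 1 week in culture and then treated for 12 h or 2 h. At each time 3 arrays were run from cultures given BDNF at 50 ng/ml together with IBET858 at 1 µM, 3 from cultures given IBET858 alone, 3 from cultures given BDNF alone and 3 from DMSO controls, which makes 24 arrays in 8 groups. The strain and sex of the mice and the number of litters or dishes are not given in the sources used here, so the p-values measure only the spread between these samples, which may be technical. The deposited log2 values are centred on the median of each probe set over the 24 arrays. A value of 0 is therefore that probe set's median, levels cannot be compared between genes, and the neuronal label cannot be checked from the level of marker genes. The third IBET858 array at 12 h and the first DMSO array at 2 h stood apart from their groups, with a standard deviation around the group mean of 0.159 and 0.178 over all genes, against 0.0726 to 0.117 on the other 22 arrays.

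The windows of 250 bases upstream of the annotated start were available for 5 of the 7 genes in RefSeq, assembly GRCm38.p6. Those of Hs3st1, Fastkd5, Nr0b1 and Ttc30a1 are printed here because BDNF alone at 2 h left the first 2 genes near or above DMSO and the last 2 well below it, as the values below show. Both strands were searched for 5 motifs, and no matches overlapped. The motifs were the TATA box as TATAAA, the E-box as CACGTG, the core of the GC box as GGGCGG, the core of the cyclic AMP response element as TGACG and the CCAAT box as CCAAT. Capitals mark a match. The Hs3st1 window lies at chr5:39644632-39644881 on the minus strand, the Fastkd5 window at chr2:130630003-130630252 on the minus strand, the Nr0b1 window at chrX:86191525-86191774 on the plus strand and the Ttc30a1 window at chr2:75981968-75982217 on the minus strand, and each sequence reads 5′ to 3′ towards the start.
Hs3st1: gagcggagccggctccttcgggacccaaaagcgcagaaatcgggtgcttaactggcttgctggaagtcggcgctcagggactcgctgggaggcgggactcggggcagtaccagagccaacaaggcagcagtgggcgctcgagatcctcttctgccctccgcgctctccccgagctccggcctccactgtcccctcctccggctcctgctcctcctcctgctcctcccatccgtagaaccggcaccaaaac
Fastkd5: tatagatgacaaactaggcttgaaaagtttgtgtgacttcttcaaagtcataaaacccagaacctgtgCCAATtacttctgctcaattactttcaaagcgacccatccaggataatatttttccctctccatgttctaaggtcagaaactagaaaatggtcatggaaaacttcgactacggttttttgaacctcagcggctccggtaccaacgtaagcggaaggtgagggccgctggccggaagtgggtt
Nr0b1: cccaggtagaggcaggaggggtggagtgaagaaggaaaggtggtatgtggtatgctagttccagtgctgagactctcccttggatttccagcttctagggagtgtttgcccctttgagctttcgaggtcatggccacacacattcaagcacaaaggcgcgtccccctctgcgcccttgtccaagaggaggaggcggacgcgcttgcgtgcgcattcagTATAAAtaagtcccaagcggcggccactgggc
Ttc30a1: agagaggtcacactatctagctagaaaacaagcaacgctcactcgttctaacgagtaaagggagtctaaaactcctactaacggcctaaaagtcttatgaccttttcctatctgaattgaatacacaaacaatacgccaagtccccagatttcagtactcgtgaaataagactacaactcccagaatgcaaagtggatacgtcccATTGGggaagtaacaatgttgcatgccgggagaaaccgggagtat
The Hs3st1 window held none of the 5 motifs. Nr0b1 had TATAAA with its first base at -32, a motif found in 12.4% of the 32851 windows counted. Windows on a chromosome that holds none of the 7 genes, and those short of 250 bases, were left out of this count and of the shares below. The CCAAT box, found in 33.8% of windows, stood at -182 upstream of Fastkd5 and on the reverse strand at -45 upstream of Ttc30a1. Nup37, on chromosome 10, also had it in both of its windows. The E-box, the GC box and the cyclic AMP motif, present in 6.02%, 32.7% and 17.8% of all windows, had no match in those of the 5 genes. GC content was 66% for Hs3st1, 57.2% for Nr0b1, 44.4% for Fastkd5 and 43.2% for Ttc30a1, against a median of 52.4% over all windows. Hs3st1 and Fastkd5 thus had no motif of the 5 in common, and neither did Nr0b1 and Ttc30a1.

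IBET858 alone at 2 h, the comparison that chose the genes, gave Mir124a-1hg the lowest difference of all 18194 genes. This host transcript of miR-124 had values of -1.71, -1.87 and -1.91 on the IBET858 arrays, against -0.20, -0.12 and -0.10 on the DMSO arrays, a difference of -1.69 ± 0.0826 on the log2 scale (SE of the model, n = 3 per group) or 3.22-fold lower. Hs3st1 had -1.19, -1.21 and -1.16 with IBET858, against 0.43, 0.36 and 0.43 with DMSO, and the difference of -1.59 ± 0.0529 ranked 3rd. Both lay more than 3-fold lower. Nr0b1 lay at -0.01, 0.05 and 0.01 with IBET858, against 2.16, 1.36 and 0.85 with DMSO, a difference of -1.44 ± 0.223, or -1.09 without the DMSO array that stood apart. Nup37 lay at -0.59, -0.72 and -0.51 with IBET858, against 0.93, 0.79 and 0.75 with DMSO, a difference of -1.43 ± 0.0864. The spread of Nr0b1 over its DMSO arrays was the widest of any gene and group here, with an SD of 0.66.

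The mitochondrial gene Fastkd5 had -1.21, -1.24 and -1.25 on the IBET858 arrays at 2 h, against 0.19, 0.14 and 0.17 on the DMSO arrays, a difference of -1.40 ± 0.0576. Ttc30a1 had -0.96, -1.21 and -1.29 with IBET858, against 0.25, 0.29 and 0.17 with DMSO, a difference of -1.39 ± 0.122. Its paralog Ttc30b had -0.01, -0.09 and -0.38 with IBET858, against 0.61, 0.57 and 0.34 with DMSO, a difference of -0.67 ± 0.112. In all 7 genes every IBET858 array lay below every DMSO array, as the choice of genes makes likely, and the same held for 15.3% of all genes. Next to Ttc30b in the ranking by fall were Dhx30, Actr8 and Zfp786 above it, each at -0.67, and Sparcl1 at -0.67 and Pcgf1 at -0.66 below it. The plot of array values by group shows the 8 groups of each gene side by side.

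**Figure D1:**
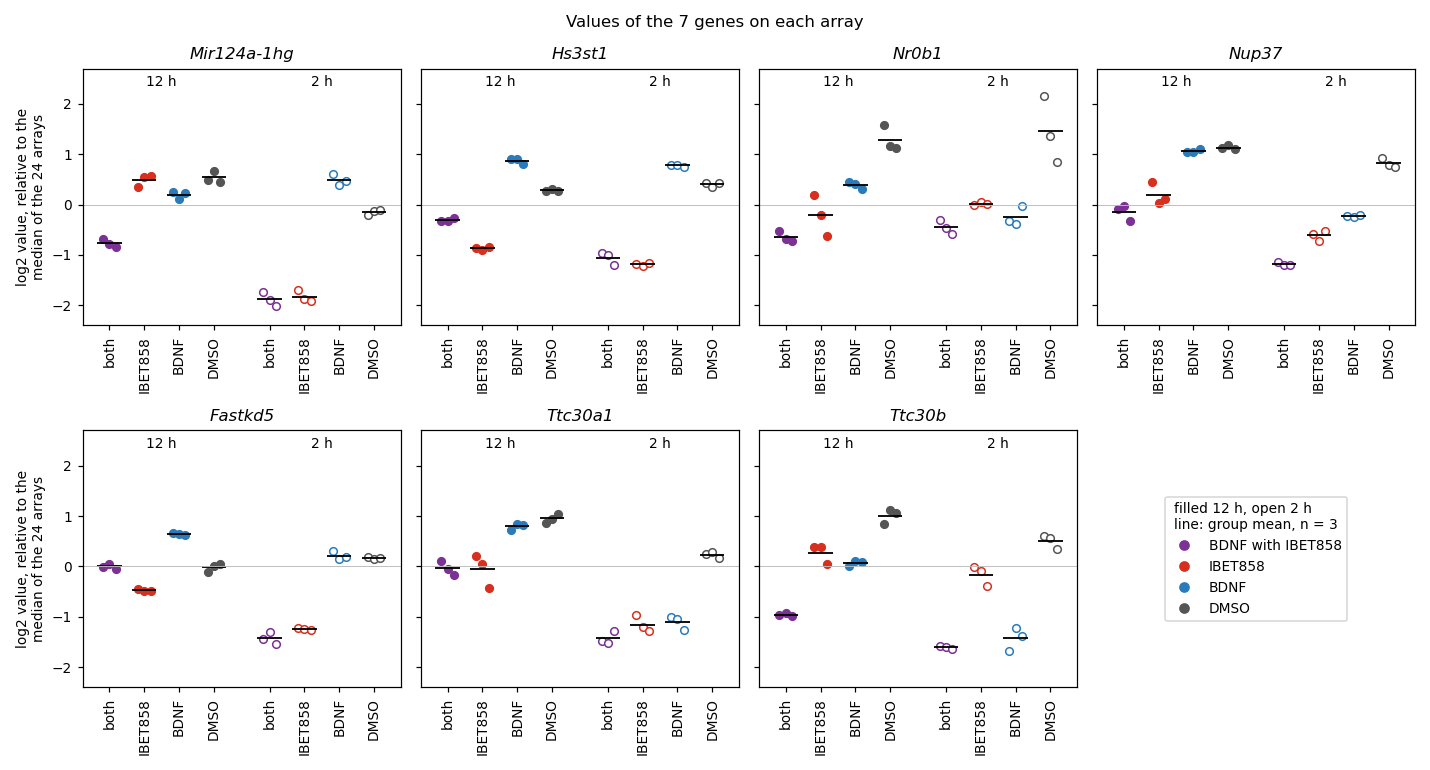
Values of the 7 genes on each of the 24 arrays (vertical axis, log2 value relative to the probe set's median over all arrays) in the 4 treatments at 12 h (filled) and at 2 h (open), where lines are group means of 3 arrays and "both" is BDNF with IBET858. Mir124a-1hg with IBET858 alone averaged 0.49 at 12 h and -1.83 at 2 h, and Ttc30b with BDNF alone averaged 0.07 at 12 h and -1.42 at 2 h.

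At 12 h, 6 of the 7 genes were still lower with IBET858 alone than with DMSO, on arrays that took no part in choosing them. Nr0b1 and Hs3st1 had the lowest differences, and Mir124a-1hg, the gene with the lowest 2 h value, was back beside its DMSO control. The 6 calls stand beside a background of 25.8% of all genes called lower and 22.9% called higher in the same comparison. The median difference of the 7 genes was -0.94 and that of all genes 0.04. Less transcript per cell and fewer cells of a kind that makes it cannot be told apart in such cultures.

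Hs3st1 had -0.87, -0.89 and -0.84 on the IBET858 arrays at 12 h, against 0.27, 0.31 and 0.27 on the DMSO arrays, and fell by 1.15 ± 0.0529 on the log2 scale (2.22-fold lower, adjusted p = 3.18e-13). Nr0b1 had 0.18, -0.20 and -0.62 with IBET858, against 1.59, 1.16 and 1.11 with DMSO, and fell by 1.50 ± 0.223 (2.83-fold lower, adjusted p = 7.58e-06). The 3 IBET858 arrays of Nr0b1 spread widely, yet all lay below the DMSO arrays, as in 26.4% of all genes. Nup37 had 0.44, 0.03 and 0.12 with IBET858, against 1.12, 1.18 and 1.10 with DMSO, and fell by 0.94 ± 0.0864 (1.92-fold lower, adjusted p = 9.23e-09). Fastkd5 had -0.45, -0.48 and -0.48 with IBET858, against -0.11, 0.00 and 0.05 with DMSO, and fell by 0.45 ± 0.0576 (1.37-fold lower, adjusted p = 9.8e-07). That was the smallest of the 6 changes, in a gene that had been 2.64-fold lower at 2 h.

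The cilium genes Ttc30a1 and Ttc30b both fell. Ttc30a1 had 0.21, 0.05 and -0.43 on the IBET858 arrays at 12 h, against 0.87, 0.95 and 1.05 on the DMSO arrays, a fall of 1.01 ± 0.122 (2.02-fold lower, adjusted p = 4.58e-07). Ttc30b had 0.38, 0.39 and 0.05 with IBET858, against 0.84, 1.12 and 1.06 with DMSO, a fall of 0.73 ± 0.112 (1.66-fold lower, adjusted p = 1.13e-05). Mir124a-1hg had 0.35, 0.56 and 0.56 with IBET858, against 0.49, 0.68 and 0.46 with DMSO, and its groups overlapped. Its difference was -0.05 ± 0.0826 with a 95% interval of -0.23 to 0.12 (adjusted p = 0.615). It was called lower, at -0.30 (adjusted p = 0.0132), when each array was centred and scaled.

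The lowest array of Ttc30a1 and of Nr0b1 with IBET858 was the one that stood apart, and without it and the outlying DMSO array at 2 h the differences at 12 h were -0.83 for Ttc30a1, -1.30 for Nr0b1, -0.62 for Ttc30b and -0.90 for Nup37, with all 6 calls kept. After cyclic loess between the arrays Fastkd5, Ttc30b and Mir124a-1hg turned to higher with IBET858 at 12 h, by 0.50, 0.29 and 1.23, and Ttc30a1 lost its call, at -0.21 (adjusted p = 0.164).

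Set beside the 2 h values, which chose the genes and carry no test, the IBET858 difference at 12 h minus that at 2 h was 1.63 ± 0.117 for Mir124a-1hg and 0.95 for Fastkd5. It was 0.49 for Nup37, 0.44 for Hs3st1 and 0.38 for Ttc30a1. For Nr0b1 it was -0.06 ± 0.316 and for Ttc30b -0.06 ± 0.159. Errors of this size leave room for a smaller or a larger fall at 12 h than at 2 h in these genes. Without the arrays that stood apart, the IBET858 difference of Nr0b1 was -1.09 at 2 h and -1.30 at 12 h. That of Ttc30b was -0.62 at both times. The choice of the genes by their 2 h values enters all of these numbers.

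In neurons that also received BDNF, IBET858 lowered all 7 genes at 12 h, with every array of BDNF with IBET858 below every array of BDNF alone. Of all genes 25.6% were called lower, and 30.7% had every array lower. Differences ran from -0.64 to -1.22, with a median of -1.03 against -0.01 for all genes. Nup37 had -0.10, -0.03 and -0.32 with BDNF and IBET858, against 1.04, 1.05 and 1.11 with BDNF alone, and fell by 1.22 ± 0.0864 (2.32-fold lower, adjusted p = 1.27e-10). Hs3st1 had -0.33, -0.33 and -0.27 with both, against 0.91, 0.91 and 0.81 with BDNF alone, and fell by 1.18 ± 0.0529 (2.27-fold lower, adjusted p = 1.15e-13). These are the 2 furthest falls at 12 h in the presence of BDNF.

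Mir124a-1hg, which stood beside its control with IBET858 alone, was lower with BDNF present. The values were -0.68, -0.77 and -0.83 with both, against 0.24, 0.10 and 0.24 with BDNF alone, a fall of 0.95 ± 0.0826 (1.94-fold lower, adjusted p = 2.71e-09). Nr0b1 had -0.52, -0.69 and -0.72 with both, against 0.45, 0.40 and 0.31 with BDNF alone, a fall of 1.03 ± 0.223 (2.04-fold lower, adjusted p = 0.000514). Fastkd5 had 0.00, 0.06 and -0.05 with both, against 0.67, 0.64 and 0.62 with BDNF alone, a fall of 0.64 ± 0.0576 (1.56-fold lower, adjusted p = 4.37e-09). In this gene, BDNF with IBET858 therefore brought the value to that of DMSO at the same time, which averaged -0.02.

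Ttc30a1 had 0.11, -0.05 and -0.16 with both at 12 h, against 0.73, 0.84 and 0.83 with BDNF alone, and fell by 0.83 ± 0.122 (1.78-fold lower, adjusted p = 5.56e-06). Ttc30b had -0.96, -0.92 and -0.98 with both, against 0.01, 0.11 and 0.10 with BDNF alone, and fell by 1.03 ± 0.112 (2.04-fold lower, adjusted p = 9.44e-08). The 7 calls held with any 1 array left out. After cyclic loess 3 calls of a fall were left, Mir124a-1hg and Fastkd5 were higher with both by 0.24 and 0.31, and Ttc30a1 and Ttc30b lost their calls, at 0.0024 and -0.02 (adjusted p = 0.99 and 0.916).

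At 2 h with BDNF present, IBET858 lowered 4 of the 7 genes, against a background of 14.9% of all genes. The 4 were Mir124a-1hg, Hs3st1, Fastkd5 and Nup37, and 3 of them lay more than 3-fold below BDNF alone. Mir124a-1hg had -1.74, -1.89 and -2.00 with both, against 0.60, 0.38 and 0.47 with BDNF alone, and fell by 2.36 ± 0.0826 (5.13-fold lower, adjusted p = 4.48e-15). Hs3st1 had -0.96, -1.01 and -1.19 with both, against 0.79, 0.79 and 0.75 with BDNF alone, and fell by 1.83 ± 0.0529 (3.55-fold lower, adjusted p = 2.58e-16). Fastkd5 had -1.45, -1.30 and -1.54 with both, against 0.31, 0.16 and 0.18 with BDNF alone, and fell by 1.64 ± 0.0576 (3.12-fold lower, adjusted p = 4.48e-15). In these 3 genes BDNF alone left the signal high, and adding IBET858 brought it close to that of IBET858 alone.

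Nup37 had -1.14, -1.20 and -1.21 with both at 2 h, against -0.22, -0.25 and -0.21 with BDNF alone, a fall of 0.96 ± 0.0864 (1.94-fold lower, adjusted p = 1.52e-08). For the remaining 3 genes BDNF alone was already low. Nr0b1 had -0.30, -0.47 and -0.59 with both, against -0.33, -0.39 and -0.03 with BDNF alone, and the difference was -0.21 ± 0.223 with a 95% interval of -0.67 to 0.26 (adjusted p = 0.537). Ttc30b had -1.57, -1.60 and -1.65 with both, against -1.67, -1.22 and -1.38 with BDNF alone, a difference of -0.18 ± 0.112 with a 95% interval of -0.42 to 0.05 (adjusted p = 0.251). In both genes the groups overlapped.

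Ttc30a1 had -1.47, -1.53 and -1.28 with both at 2 h, against -1.01, -1.04 and -1.26 with BDNF alone. Every array with both lay below those with BDNF alone, as in 21.1% of all genes. The difference was -0.32 ± 0.122 with a 95% interval of -0.58 to -0.07 (adjusted p = 0.0554). This gene sat at the threshold, since it was called with the replicate number as a block (adjusted p = 0.0485) and with array weights (adjusted p = 0.0144).

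**Figure D2:**
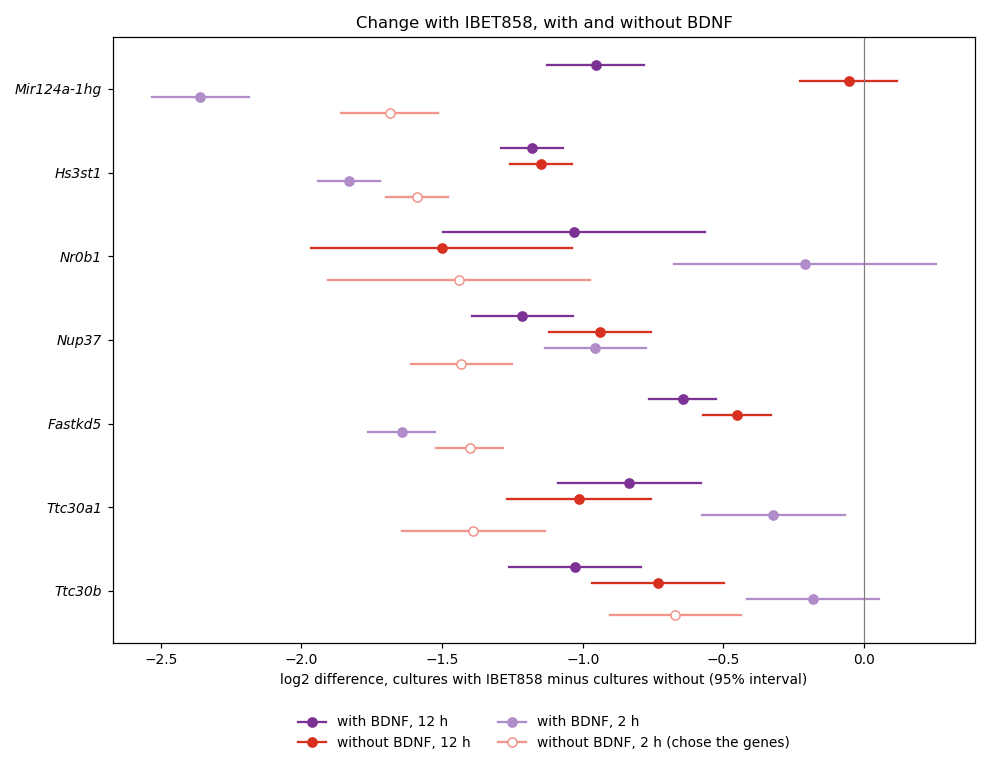
Difference between cultures with and without IBET858 for each gene (horizontal axis, log2, with 95% intervals of the model), with BDNF and without BDNF at 12 h and at 2 h, where open points are the comparison that chose the genes. With BDNF at 2 h, Mir124a-1hg lies at -2.36 while Nr0b1 and Ttc30b have intervals that include 0, and without BDNF at 12 h Mir124a-1hg lies at -0.05; after cyclic loess the 12 h points of Fastkd5 and Mir124a-1hg, and that of Ttc30b without BDNF, turn to higher.

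The IBET858 effect under BDNF differed between 12 h and 2 h in 6 of the 7 genes, 3 in each direction, with 19.3% of all genes called higher and 20.9% called lower. Mir124a-1hg, Fastkd5 and Hs3st1 stood closer to BDNF alone at 12 h than at 2 h, by 1.40 ± 0.117 (adjusted p = 4.25e-09), 1.00 ± 0.0814 (adjusted p = 3.15e-09) and 0.65 ± 0.0749 (adjusted p = 4.29e-07). The reverse held for Ttc30b, Nr0b1 and Ttc30a1, where IBET858 lowered the signal further below BDNF alone at 12 h than at 2 h. Ttc30b differed by -0.84 ± 0.159 (adjusted p = 0.000178), Nr0b1 by -0.82 ± 0.316 (adjusted p = 0.0427) and Ttc30a1 by -0.51 ± 0.173 (adjusted p = 0.0218). The call of Nr0b1 was lost when any 1 of 9 arrays was left out, and that of Ttc30a1 was lost without the third array of both at 12 h (adjusted p = 0.0621), of both at 2 h (adjusted p = 0.0646) or of BDNF at 2 h (adjusted p = 0.0667). After cyclic loess Ttc30b and Ttc30a1 turned to 0.20 and 0.35. Nup37 gave -0.26 ± 0.122 (adjusted p = 0.099) and was called at the same size when only the groups compared entered the model (adjusted p = 0.0364), with array weights (adjusted p = 0.0451) and without the first IBET858 array at 12 h (adjusted p = 0.0379). It was also called at -0.29 when each array was centred and scaled (adjusted p = 0.045) and at -0.96 after cyclic loess (adjusted p = 3.75e-06).

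BDNF alone moved the 7 genes in both directions. At 12 h it lowered Ttc30b, Nr0b1 and Mir124a-1hg, against a background of 24.2% of genes called lower, and raised Fastkd5 and Hs3st1, against a background of 16.9% called higher. Ttc30b, whose arrays at both times are given above, fell by 0.93 ± 0.112 relative to DMSO (1.91-fold lower, adjusted p = 6.75e-07). Nr0b1 fell by 0.90 ± 0.223 (1.87-fold lower, adjusted p = 0.00232), and every BDNF array lay below every DMSO array in both genes. The same held for Mir124a-1hg, for Ttc30a1, which was not called, and for 29.2% of all genes. Mir124a-1hg fell by 0.35 ± 0.0826 (adjusted p = 0.00157), a call that cyclic loess turned to 0.13.

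The sulfotransferase Hs3st1 rose by 0.59 ± 0.0529 with BDNF at 12 h (1.51-fold higher, adjusted p = 9.61e-09), and Fastkd5 by 0.66 ± 0.0576 (1.58-fold higher, adjusted p = 6.01e-09). Again no BDNF array of these genes overlapped with the DMSO arrays, and every BDNF array lay higher in 22.8% of all genes. Nup37 differed by -0.07 ± 0.0864 with a 95% interval of -0.25 to 0.11 (adjusted p = 0.613), and Ttc30a1 by -0.15 ± 0.122 with a 95% interval of -0.41 to 0.10 (adjusted p = 0.363). After each array was centred and scaled Nup37 was called lower, at -0.26 (adjusted p = 0.00925). The 5 calls named above held with any 1 array left out.

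At 2 h the BDNF values are set against the DMSO arrays that also chose the genes, so they are described without a test. Ttc30b averaged -1.42 ± 0.227 with BDNF and 0.51 ± 0.144 with DMSO (SD, n = 3 each), a difference of -1.93 ± 0.112 (SE), 3.81-fold lower and the lowest of all 18194 genes. Nr0b1 was 3.25-fold lower, with a difference of -1.70 ± 0.223, or -1.35 without the outlying DMSO array. Ttc30a1 was 2.53-fold lower, at -1.34 ± 0.122, and Nup37 was 2.07-fold lower, at -1.05 ± 0.0864. In these 4 genes all BDNF arrays lay below all DMSO arrays, as they did in 24.2% of all genes. Ttc30b was thus lowered further by BDNF than by IBET858 at 2 h, since its IBET858 difference was -0.67. Fastkd5 lay at 0.05 ± 0.0576, whereas Hs3st1 and Mir124a-1hg were higher with BDNF, at 0.37 ± 0.0529 and 0.63 ± 0.0826. All BDNF arrays lay above all DMSO arrays in these last 2 genes, as in 16.9% of all genes.

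**Figure D3:**
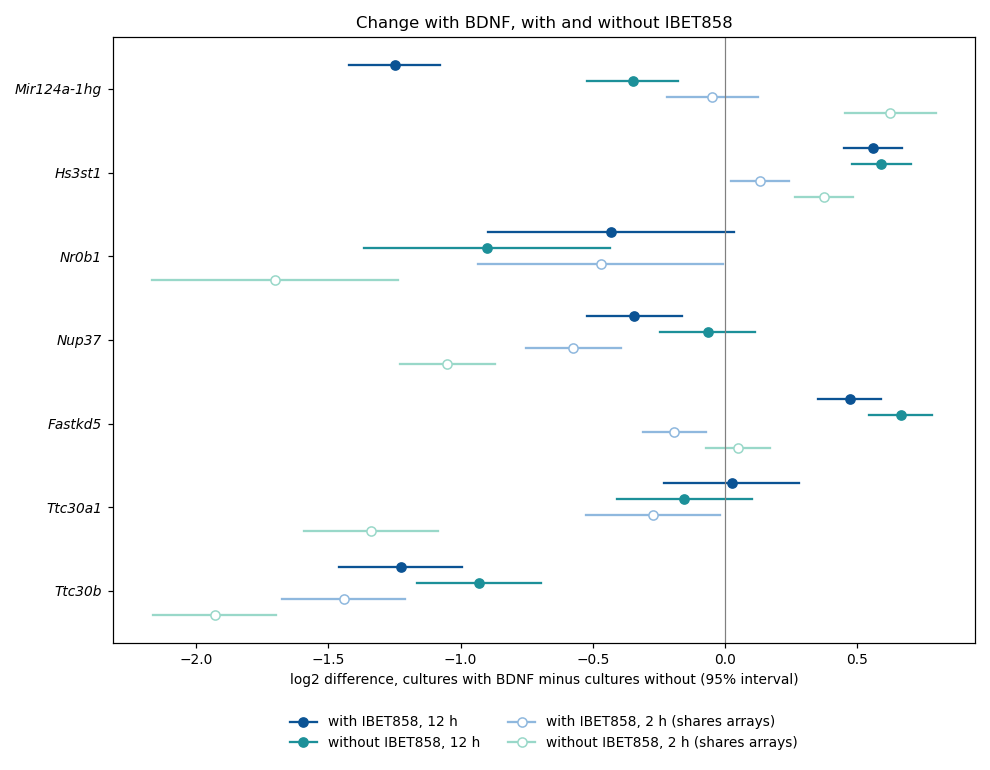
Difference between cultures with and without BDNF for each gene (horizontal axis, log2, with 95% intervals of the model), with IBET858 and without IBET858 at 12 h and at 2 h, where open points share arrays with the comparison that chose the genes and carry no test. Ttc30b lies below 0 in all 4 comparisons, from -0.93 to -1.93, while Hs3st1 lies above 0 in all 4, from 0.13 to 0.59; after cyclic loess Mir124a-1hg without IBET858 at 12 h turns to 0.13.

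Adding BDNF to IBET858 changed 5 of the 7 genes at 12 h. It lowered Mir124a-1hg, Ttc30b and Nup37 relative to IBET858 alone, against a background of 23.2% of genes called lower, and raised Hs3st1 and Fastkd5, against 16.1% called higher. Mir124a-1hg fell by 1.25 ± 0.0826 (2.38-fold lower, adjusted p = 1.26e-10) and Ttc30b by 1.23 ± 0.112 (2.34-fold lower, adjusted p = 1.63e-08). Hs3st1 rose by 0.56 ± 0.0529 (adjusted p = 2.59e-08) and Fastkd5 by 0.47 ± 0.0576 (adjusted p = 9.63e-07). Nup37 fell by 0.34 ± 0.0864 (adjusted p = 0.003), and the call was lost when only the groups compared entered the model (adjusted p = 0.0734). Ttc30a1 differed by 0.02 ± 0.122 (adjusted p = 0.898), and was called higher, at 0.36, after cyclic loess (adjusted p = 0.0191). Nr0b1 differed by -0.43 ± 0.223 with a 95% interval of -0.89 to 0.04 (adjusted p = 0.139), and it was called, at -0.63 (adjusted p = 0.0412), without the IBET858 array that stood apart, at -0.86 after cyclic loess (adjusted p = 0.00399), at -0.52 with array weights (adjusted p = 0.023) and without the first DMSO array at 2 h (adjusted p = 0.0403).

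The interaction at 12 h asks whether the IBET858 effect differs with and without BDNF. It was called for 1 of the 7 genes, Mir124a-1hg, at -0.90 ± 0.117 (adjusted p = 1.48e-05), with 7.24% of all genes called lower and 8.94% called higher. For the other 6 genes it lay between -0.30 and 0.47, and Nup37, at -0.28, was called without the second IBET858 array (-0.36, adjusted p = 0.0453) and after cyclic loess (-0.47, adjusted p = 0.0148). Hs3st1 gave -0.03 with an adjusted p of 0.829, and its differences of -1.18 with BDNF and -1.15 without BDNF differed by less than the error. At 2 h, where the arrays that chose the genes enter and no test is given, the interaction was 1.23 ± 0.316 for Nr0b1 and 1.07 ± 0.173 for Ttc30a1. It was 0.49 ± 0.159 for Ttc30b and 0.48 ± 0.122 for Nup37. For these genes the fall with both agents together was smaller than the 2 single differences added up. The interaction at 2 h was -0.67 ± 0.117 for Mir124a-1hg, -0.24 ± 0.0749 for Hs3st1 and -0.24 ± 0.0814 for Fastkd5. Relative to DMSO at 2 h, BDNF with IBET858 lay lowest for Ttc30b, at -2.11 (4.33-fold lower), and Nup37, at -2.01 (4.01-fold lower), and all 7 genes lay below DMSO on every array, as did 25.9% of all genes.

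With BDNF, whether or not IBET858 was present, most of the 7 genes were higher at 12 h than at 2 h. With BDNF and IBET858 together, 6 of the 7 genes were higher at 12 h, against a background of 26.3% of genes called higher and 34.5% called lower, led by Fastkd5 at 1.43 (2.69-fold higher, adjusted p = 1.09e-14) and Ttc30a1 at 1.39 (adjusted p = 2.06e-09). The median of all genes was -0.10 in this comparison and -0.03 after cyclic loess. Nr0b1 was the exception, with a difference of -0.19 ± 0.223 (adjusted p = 0.474), and after cyclic loess it was called lower, at -1.35 (adjusted p = 3e-05). With BDNF alone 5 genes rose, against 20.1% of all genes, and 1 fell, against 19.3%. Ttc30a1 rose by 1.91 ± 0.122 (3.75-fold, adjusted p = 7.87e-11), Ttc30b by 1.50 ± 0.112 (2.82-fold, adjusted p = 8.24e-10) and Nup37 by 1.29 ± 0.0864 (adjusted p = 1.41e-10). At 12 h the BDNF means of Ttc30a1 and Nup37 lay at 0.80 and 1.07, near the DMSO means of 0.96 and 1.13, whereas Ttc30b averaged 0.07 with BDNF and 1.01 with DMSO. Nr0b1 rose by 0.63 ± 0.223 (adjusted p = 0.028), a call lost without any 1 of 4 arrays and after cyclic loess (0.50, adjusted p = 0.0857). The single fall, of Mir124a-1hg by 0.29 (adjusted p = 0.00724), was lost without the first BDNF array at 2 h, where it was -0.23 (adjusted p = 0.053), and cyclic loess turned it to 0.23. For Hs3st1 the difference was 0.10 (adjusted p = 0.167), and the scaling decided its direction, with a call at 0.26 after cyclic loess (adjusted p = 0.00061) and at -0.15 after each array was centred and scaled (adjusted p = 0.0443).

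IBET858 and DMSO at 2 h chose the genes, so their own change with time is given as values. With IBET858 alone Mir124a-1hg was 4.98-fold higher at 12 h, a difference of 2.32. Ttc30a1 was higher by 1.10, Nup37 by 0.80 and Fastkd5 by 0.77, while Nr0b1 lay at -0.23. In DMSO cultures the differences were between -0.18 and 0.72, and the highest were Ttc30a1 at 0.72 and Mir124a-1hg at 0.68. Mir124a-1hg was thus higher at 12 h in both, and further so with IBET858.

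Ordered by group mean, the 7 genes fell into different sequences. Hs3st1 was lowest with IBET858 at 2 h, at -1.19 ± 0.0244 (SD, n = 3), which overlapped with BDNF and IBET858 at 2 h, and highest with BDNF at 12 h, at 0.87 ± 0.0589. Its next groups from low to high were IBET858 at 12 h at -0.87, both at 12 h at -0.31, DMSO at 12 h at 0.28, DMSO at 2 h at 0.40 and BDNF at 2 h at 0.78, and none of these neighbours overlapped. Mir124a-1hg was lowest with both at 2 h, at -1.88 ± 0.134, overlapping with IBET858 at 2 h at -1.83. Then came both at 12 h at -0.76, DMSO at 2 h at -0.14 and BDNF at 12 h at 0.19, with overlaps among BDNF at 2 h, IBET858 at 12 h and DMSO at 12 h between 0.48 and 0.54. The noncoding host transcript therefore had its 3 lowest groups all under IBET858 and its highest in DMSO at 12 h.

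Nr0b1 was highest in DMSO, at 1.29 ± 0.261 at 12 h and 1.46 ± 0.663 at 2 h, which overlapped, and every treated group lay below both. Its 5 lowest groups, from -0.64 ± 0.106 with both at 12 h to 0.02 ± 0.0283 with IBET858 at 2 h, overlapped each with the next. Fastkd5 ran from -1.43 ± 0.117 with both at 2 h to 0.65 ± 0.0254 with BDNF at 12 h, and both at 12 h overlapped with DMSO at 12 h. Nup37 ran from -1.18 ± 0.0362 with both at 2 h to 1.13 ± 0.0396 in DMSO at 12 h, which overlapped with BDNF at 12 h. Ttc30a1 had its 3 lowest groups at 2 h, both at -1.43, IBET858 at -1.15 and BDNF at -1.10, and each overlapped with the next. Ttc30b was lowest with both at 2 h, at -1.61 ± 0.0375, which overlapped with BDNF at 2 h, and highest in DMSO at 12 h, at 1.01 ± 0.149.

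Over the 24 arrays the 21 pairs of genes had Pearson correlations of 0.19 to 0.93 with a median of 0.71. All points share the arrays and the choice by a low value with IBET858 at 2 h, so these values describe the courses and carry no test. The closest pairs were Nup37 and Ttc30a1 at 0.93 and Hs3st1 and Fastkd5 at 0.91. The paralogs Ttc30a1 and Ttc30b correlated at 0.77, less than Ttc30b with Nup37 at 0.80. Hs3st1 and Ttc30b were the least alike, at 0.19.

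**Figure D4:**
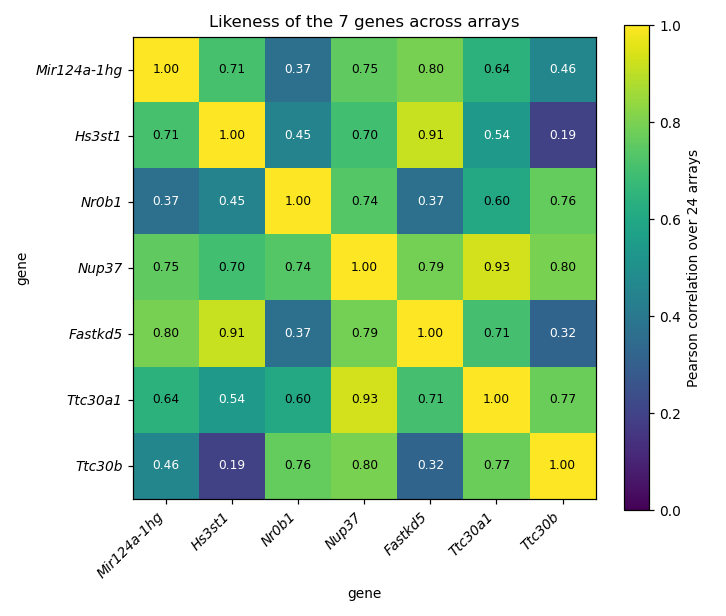
Pearson correlation of each pair of the 7 genes over the 24 arrays (rows and columns are genes, the colour scale runs from 0 to 1 and the number in a cell is the correlation). Hs3st1, Fastkd5 and Mir124a-1hg correlate with each other at 0.71 to 0.91, and Nup37, Ttc30a1 and Ttc30b at 0.77 to 0.93. These sets are not fully separate: Nup37 correlates at 0.79 with Fastkd5 and 0.75 with Mir124a-1hg, while Ttc30b lies at 0.19 with Hs3st1. Nr0b1 is closest to Ttc30b at 0.76.

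Among all other named genes, those with the course most like Hs3st1 over the 24 arrays were the transcription factor Sp1 at 0.97, Flrt2 at 0.96 and Cpsf7 at 0.95. Fastkd5 was most like Naf1 at 0.97, Taf5l at 0.97 and Zfp623 at 0.96. For Mir124a-1hg the nearest were Setd1a at 0.95, Zadh2 at 0.94 and the NF-kappaB subunit Rela at 0.94. Nup37 was most like Zfp27, Fdx1 and Toe1, each at 0.97, and Ttc30a1 was most like Dtwd1 at 0.95, Ccnq at 0.94 and Wdr5b at 0.94. Ttc30b was most like Zfp688, Golga5 and Rad1, each at 0.97. Nr0b1 was most like Rsl1 at 0.95, Kcnv1 at 0.93 and Ppp1r26 at 0.92. For each of the 7 genes, these 3 came closer than any of the other 6, as the choice of the highest values among all other named genes makes likely.

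The families of the 7 genes were followed in lists that include the genes themselves, and no set test was made. Their counts stand beside the shares of all genes called lower and higher. These were 25.8% and 22.9% with IBET858 at 12 h, and 25.6% and 21.1% with IBET858 under BDNF at 12 h. Under BDNF at 2 h they were 14.9% and 12.2%, and with BDNF against DMSO at 12 h 24.2% and 16.9%. In the FASTK family of mitochondrial RNA-binding proteins, 5 of 6 genes were lower with IBET858 than with DMSO at 12 h and 1 was higher, with a median of -0.37 against 0.04 for all genes. Fastkd1 lay at -1.24 ± 0.0784 and Fastkd2 at -0.96 ± 0.0878, both further down than Fastkd5, while Fastkd3 rose by 0.40 ± 0.0591. With BDNF present at 12 h, where 21.1% of all genes were called higher, the family again had 5 genes lower and 1 higher, with a median of -0.66. At 2 h with BDNF present, where 12.2% of all genes were called higher, 3 were lower and 1 higher, but Fastkd1 at -0.23 ± 0.0784 was far from the -1.64 of Fastkd5. The counts at 12 h without BDNF became 3 lower and 1 higher after cyclic loess.

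Heparan sulfate enzymes were called in both directions. With IBET858 at 12 h 5 of 21 measured genes were lower and 7 higher than with DMSO, beside 25.8% and 22.9% of all genes. Hs3st4, another 3-O-sulfotransferase, fell by 0.67 ± 0.188 and the glycosyltransferase Extl2 by 0.84 ± 0.0553, while Extl1 rose by 1.40 ± 0.129. Hs3st2, of the same enzyme family as Hs3st1, went the other way: with BDNF present IBET858 raised it by 1.65 ± 0.0685 at 12 h (adjusted p = 4.06e-14) and by 0.82 ± 0.0685 at 2 h (adjusted p = 4.27e-09). In that 12 h comparison 8 of the 21 genes were lower and 8 higher, beside 25.6% and 21.1% of all genes.

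In the Y-complex of the nuclear pore 5 of 10 measured genes were lower and none higher with IBET858 under BDNF at 2 h, with a median of -0.19 against 0.05 for all genes. At an unadjusted p under 0.05 limma also gave 5 lower and 0 higher. Nup98, whose transcript also encodes the Y-complex subunit Nup96, fell by 1.47 ± 0.0662 (adjusted p = 2.28e-13), further than Nup37. Nup160 fell by 0.68 ± 0.0888 and Seh1l by 0.53 ± 0.0567. At 12 h Nup98 differed by 0.12 ± 0.0662 in the same comparison (adjusted p = 0.139), while Nup37 was still lower. With IBET858 alone at 12 h 4 genes of the list were lower and 3 higher, beside 25.8% and 22.9% of all genes. Nup133 lay at -0.45 ± 0.0538 and Ahctf1 at 0.48 ± 0.0794.

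Of the cilium transport lists more genes were called lower than higher with BDNF at 12 h, where 24.2% of all genes were lower and 16.9% higher. BDNF lowered 12 of 18 genes of intraflagellar transport complex B and raised none, with a median of -0.31 against -0.01 for all genes, and after cyclic loess 11 were lower and 1 higher. At an unadjusted p under 0.05 limma gave 12 lower and 0 higher. Ift46 fell by 1.33 ± 0.0544 (adjusted p = 5.26e-14), Ift172 by 0.97 ± 0.068 and Ift74 by 0.86 ± 0.156. Of complex A, 5 of 7 genes were lower and none higher, with the same counts at an unadjusted p under 0.05, with Ift140 at -1.27 ± 0.0703 and Wdr19 at -0.96 ± 0.0751. Ttc30b, at -0.93, was among the genes of complex B called lower, and Ttc30a1, of the same complex, was not called, at -0.15. With IBET858 alone at 12 h 8 genes of complex B were lower and 2 higher, with Ift52 at -0.77 ± 0.0976, and after cyclic loess 6 were lower and 4 higher. Under BDNF at 2 h IBET858 lowered 2 and raised 2, with a median of 0.03 against 0.05 for all genes.

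REST, the repressor that keeps the miR-124 genes off outside neurons, and its corepressors were followed beside Mir124a-1hg. With IBET858 at 12 h 6 of 11 genes were higher and 1 lower than with DMSO (3 and 1 after cyclic loess), and Rest itself rose by 1.00 ± 0.0535 (adjusted p = 2.9e-12), Sin3a by 1.02 ± 0.0603 and Rcor1 by 0.95 ± 0.066. With BDNF present at 12 h 7 were higher and 3 lower, and Rest rose by 1.26 ± 0.0535. At 2 h under BDNF, when Mir124a-1hg was furthest down, 7 were lower and 1 higher, and Rest fell by 0.29 ± 0.0535. Of 15 known targets of miR-124, 7 were higher and 2 lower with IBET858 at 12 h, beside 22.9% and 25.8% of all genes. After cyclic loess 5 were higher and 4 lower. With BDNF present 9 were higher and 3 lower at 12 h, and 5 were higher and 6 lower at 2 h. Ptbp1, a splicing regulator that miR-124 represses, rose by 0.96 ± 0.054 at 2 h under BDNF and by 0.28 ± 0.054 at 12 h. Ptbp2, another gene of this target list, went the other way at 12 h. It differed by -1.02 ± 0.0645 with IBET858 alone and by -0.996 ± 0.0645 under BDNF. Whether miR-124 had a part in these differences was not tested. The mature microRNA was not measured by these probe sets.

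Of the 4 receptors of the NR0B and NR5A groups, Nr0b1 was the only one called lower with IBET858 at 12 h. Nr5a2 was higher there by 0.20 ± 0.0802 (adjusted p = 0.0406), and Nr0b2 and Nr5a1 differed by 0.09 and 0.13 (adjusted p = 0.39 and 0.152). The call of Nr5a2 was lost when each array was centred on its own median.

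Ttc30a1 and Ttc30b stand next to another copy, Ttc30a2, in the RefSeq gene order of chromosome 2, and this gene was looked at after its values were seen. Its 2 probe sets, 1 of them of a type that can bind several transcripts, gave smaller differences than its neighbours. It differed by 0.12 ± 0.08 with IBET858 at 12 h (adjusted p = 0.238), by -0.10 under BDNF at 12 h (adjusted p = 0.35) and by 0.03 under BDNF at 2 h (adjusted p = 0.847). Against the DMSO arrays at 2 h, described here without a test as for the 7 genes, it lay lower by a small amount, at -0.27 with BDNF, -0.24 with both and -0.20 with IBET858. With BDNF alone it was higher at 12 h than at 2 h by 0.30 (adjusted p = 0.00499), as Ttc30a1 and Ttc30b were. Since the 3 copies are nearly identical in their coding part, which copy each probe set measured is uncertain.

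The nearest measured neighbours of the 7 genes in RefSeq order differed in both directions with IBET858 at 12 h. In that comparison 25.8% of all genes were called lower and 22.9% higher. Ubox5 and Lzts3, on either side of Fastkd5, rose with IBET858 at 12 h, by 0.23 ± 0.0657 (adjusted p = 0.00602) and 0.35 (adjusted p = 1.73e-06), where Fastkd5 fell. Near Nup37, Washc3 fell by 0.50 (adjusted p = 7.55e-08) and Parpbp differed by -0.15 (adjusted p = 0.218). Agps beside Ttc30b fell by 0.29 (adjusted p = 0.000433), and Pde11a beside Ttc30a1 differed by -0.03 (adjusted p = 0.777). Further off, Il1rapl1, 12 genes from Nr0b1, fell by 0.97 ± 0.0849 (adjusted p = 4.1e-09), while Samt3, next to Nr0b1 on its other side, differed by 0.15 (adjusted p = 0.165). Rab28, 6 genes from Hs3st1, fell by 0.34 ± 0.114 (adjusted p = 0.0164), and Clnk, 7 genes from it, differed by -0.18 (adjusted p = 0.361). Near Mir124a-1hg, Msra fell by 1.20 ± 0.0993 with IBET858 at 12 h (adjusted p = 1.8e-09) and differed by -1.64 under BDNF at 12 h (adjusted p = 1.03e-11), but lay at 0.04 under BDNF at 2 h (adjusted p = 0.809), where Mir124a-1hg was furthest down. Kif13b on the other side differed by 0.01 with IBET858 at 12 h (adjusted p = 0.92).

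Markers of several cell types were called in the same comparisons, and their counts stand beside the shares of all genes. With IBET858 at 12 h 25.8% of all genes were called lower and 22.9% higher. The oligodendrocyte, vascular and progenitor counts did not exceed these shares. With BDNF against DMSO at 12 h the shares were 24.2% and 16.9%, and with IBET858 under BDNF at 2 h they were 14.9% and 12.2%. With IBET858 at 12 h 6 of 12 neuron markers were lower and 4 higher than with DMSO, and the median of the list over arrays ran from -0.50 to -0.11 with IBET858 and from -0.10 to -0.01 with DMSO, and after cyclic loess 1 was lower and 5 higher. Of 10 astrocyte markers 4 were lower and 1 higher, with list medians of -0.24 to -0.10 with IBET858 and -0.08 to 0.33 with DMSO. Of 10 microglia markers 4 were lower and 1 higher, from -0.43 to -0.32 with IBET858 and from -0.13 to -0.01 with DMSO. Of 9 oligodendrocyte markers 2 were lower and 1 higher, of 10 vascular and fibroblast markers 2 lower and 2 higher, and of 10 progenitor markers 1 lower and 2 higher. With BDNF against DMSO at 12 h 6 neuron markers were lower and 4 higher, 3 astrocyte markers were lower and none higher, 3 microglia markers lower and 1 higher, 2 oligodendrocyte markers lower and 1 higher, 1 progenitor marker lower and 4 higher, and 0 of 10 vascular markers were called in limma, with 2 lower and 0 higher at an unadjusted p under 0.05. Under BDNF at 2 h, where Mir124a-1hg, Hs3st1 and Fastkd5 lay furthest down, IBET858 lowered none of the neuron, astrocyte, oligodendrocyte, microglia or vascular markers. It raised 4 of 12 neuron, 4 of 10 vascular, 2 of 10 microglia and 1 of 10 astrocyte markers. At an unadjusted p under 0.05 limma gave 1 marker of these lists as lower, an oligodendrocyte one. Of 10 progenitor markers 1 was called lower and 1 higher in this comparison. The list median of the vascular markers ran from 0.17 to 0.25 with both and from -0.06 to 0.01 with BDNF alone. Whether these marker differences had a part in the changes of the 7 genes was not tested.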

How the data were processed

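RNA was measured on 24 Affymetrix mouse expression arrays, 3 for each of 8 groups taken from the sample labels, which do not say whether replicates came from separate cultures. The deposited values are log2 values that the authors made with RMA, per the submitters' processing notes, which name no version. RMA adjusts background, gives all arrays 1 distribution and summarises each probe set, so a change in total mRNA per cell cannot be seen. Every one of the 45101 deposited probe sets had a median of 0 across the arrays (tolerance 1e-06). They had thus been centred, which removes levels, and no filter on dim probes was possible. Scanner files and detection calls were not used here, the genome build of the files is not given in the sources used here, and precision is limited by how many arrays there were.

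The platform annotation gave 34958 a single gene symbol and 932 several, 9211 were not listed and 64 were controls. Entrez IDs matched 34754 to RefSeq (GRCm38.p6), used for names, gene order and promoter windows. A gene's value was the mean of the probe sets naming it alone, which gave 18194 genes. limma 3.58.1 in R 4.3.3 fitted 1 model with 8 group means, 16 residual degrees of freedom and eBayes. Differences are given with the standard error of the model, and two-sided p-values were corrected over the 18194 genes of a comparison (Benjamini-Hochberg), with calls at an adjusted p under 0.05. The 9 comparisons that use neither the IBET858 nor the DMSO arrays at 2 h were tested, and 8 that use them were described. The fit was tested on simulated data with known changes.

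The 7 genes and all gene lists were chosen with earlier results of these data known. Of each family list up to 4 called genes with the largest change could be named, and for each of the 7 genes the 3 named genes with the highest correlation. Family genes outside that rule, Ttc30a2 and the neighbours were named after their values were seen. Same-numbered arrays of different groups had correlations of their deviations from the group means of -0.2 to 0.509 over 84 pairs, with 10 above 0.1. All 3 were above 0.1 for 1 pair of groups, DMSO at 12 h and at 2 h (0.509, 0.239 and 0.316), which enter no tested comparison together, and the numbers were not taken to pair the samples of the groups tested. Alternatives changed the value of a gene, the arrays kept, array weights, the groups in the model, a replicate block, the variance prior and the scaling between arrays.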

Additional observations from a re-analysis of the deposited data

Results flagged for a closer look

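The following differences between times or treatments passed their own test and are given as values. The interaction of BDNF and IBET858 at 12 h was called for Mir124a-1hg, at -0.90 ± 0.117 on the log2 scale (SE, limma, adjusted p = 1.48e-05). The IBET858 effect under BDNF at 12 h minus that at 2 h was called for 6 of the 7 genes. It was 1.40 for Mir124a-1hg, 1.00 for Fastkd5 and 0.65 for Hs3st1, where the fall was smaller at 12 h. It was -0.84 for Ttc30b, -0.82 for Nr0b1 and -0.51 for Ttc30a1, where the fall below BDNF alone was larger at 12 h. In these genes the mean with BDNF alone was itself lower at 2 h than at 12 h. It was -1.42 and 0.07 for Ttc30b, -0.25 and 0.39 for Nr0b1, and -1.10 and 0.80 for Ttc30a1. The calls of Nr0b1 and Ttc30a1 did not hold with every array left out in turn. Groups of 3 arrays are too small for a test of single outlying arrays.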

How the results depend on the processing

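Over 63 differences (7 genes in 9 tested comparisons), leaving out 1 array in turn gave 1512 values, of which 1486 kept direction and call, 17 lost a call and 9 gained one. Other settings apart from cyclic loess gave 567 values, of which 552 were unchanged in this sense. Cyclic loess kept 43 of 63, reversed 10, lost 3 calls and gained 7. It sorts genes by their mean over the arrays, which in values centred on the median is no signal level but the gap between mean and median, and the cause of the changes was not tested. Under cyclic loess IBET858 against DMSO at 12 h gave 0.50 for Fastkd5, 1.23 for Mir124a-1hg and 0.29 for Ttc30b, with 3 of the 7 genes called lower and 3 higher. BDNF with IBET858 against BDNF at 12 h gave 0.31 for Fastkd5, 0.24 for Mir124a-1hg 0.0024 for Ttc30a1 and -0.02 for Ttc30b, with 3 called lower and 2 higher. BDNF against DMSO at 12 h gave 0.13 for Mir124a-1hg. BDNF at 12 h against 2 h gave 0.23 for Mir124a-1hg and left 0 genes called lower in limma, also 0 at an unadjusted p under 0.05. The IBET858 effect under BDNF at 12 h minus 2 h gave 0.35 for Ttc30a1, 0.20 for Ttc30b and -0.96 for Nup37. With BDNF and IBET858 at 12 h against 2 h 1 gene, Nr0b1, was called lower, at -1.35, and in the interaction at 12 h 2 were. After each array was centred and scaled Hs3st1 in BDNF at 12 h against 2 h turned to -0.15, and 2 genes were called lower there.

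With 1 array left out, the number of the 7 genes called lower ran from 4 to 5 in BDNF with IBET858 against BDNF at 2 h, from 3 to 4 in BDNF with IBET858 against IBET858 at 12 h, from 1 to 2 in the interaction at 12 h and from 1 to 4 in the IBET858 effect under BDNF at 12 h minus 2 h. In BDNF at 12 h against 2 h it ran from 0 to 1, with 4 to 5 called higher. The replicate number as a block changed 1 call: Ttc30a1 in BDNF with IBET858 against BDNF at 2 h was called at -0.32 (adjusted p = 0.0485), which made the count 5, and it changed no other call of the 7 genes. Of 168 comparisons of an array with another group's 3 arrays, 58 correlated best with the array of the same number. Across all genes, 2218 were called lower in BDNF with IBET858 against IBET858 at 12 h after centring and scaling, against 4227 in the model reported, and 2478 were called lower in the IBET858 effect under BDNF at 12 h minus 2 h after cyclic loess, against 3809.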
